A study of Homo sapiens with 4 samples.

Results

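CEACAM1, B4GALT1, UBE2L6, SLC44A2, CNIH1, FAM174A and NEK7 are 7 genes whose RNA was at least 2-fold lower, and to a similar degree, in both hepatocellular carcinoma lines of this study after SCD knockdown. They are 7 of 25343 gene symbols measured. They were chosen from the measured values themselves, so their differences are given as a description, with no test. The study compared 4 RNA-seq libraries, 1 per group: Huh7_shSCD1, Huh7_NTC, PLC_shSCD1 and PLC_NTC. Huh7 and PLC/PRF/5 are established human liver cancer lines, and PLC/PRF/5 carries integrated hepatitis B virus DNA. The shSCD1 cells expressed, from a lentivirus, a hairpin directed at SCD1, whose gene symbol is SCD. The NTC cells received a non-target control the same way, and all were puromycin-selected, stably transduced populations grown in high-glucose DMEM with serum. The same SCD hairpin was used in both lines, and no second hairpin or rescued culture is among the samples analysed here. The loss of SCD and any other action of that hairpin therefore cannot be told apart by design.

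SCD encodes stearoyl-CoA desaturase, which makes monounsaturated fatty acids in the endoplasmic reticulum. A hairpin RNA is cut inside the cell to a short guide that directs cleavage of transcripts it matches along its whole length. A guide can also lower transcripts that it pairs with only through its seed, a few bases near its 5′ end, most often where the match lies in the 3′ untranslated region (3′ UTR). The 7 genes belong to unrelated families: a surface adhesion receptor, a Golgi glycosyltransferase, a ubiquitin-like conjugating enzyme, a choline transporter family member, an export receptor, a membrane protein and a protein kinase.

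Levels are given in TPM, a transcript abundance scaled for transcript length and for the library's total. Differences are log2((shSCD1 TPM + 1)/(NTC TPM + 1)), which understates the change of low genes. Sequencing depth is unknown, since TPM does not keep it, and no counting interval is given. From 17405 to 17931 symbols were above 0 in a library. Within a line there is 1 library per group, so no difference has a replicate check. SCD itself stood at 137 TPM in Huh7_shSCD1, against 1755 TPM in Huh7_NTC, and at 178 TPM in PLC_shSCD1, against 1111 TPM in PLC_NTC. SCD5, the other human desaturase of this kind, was at 2.86 TPM in Huh7_shSCD1, against 3.51 TPM in Huh7_NTC, and at 5.28 TPM in PLC_shSCD1, against 3.71 TPM in PLC_NTC. Of 12 hepatocyte markers, 10 reached 1 TPM in a library of each line, and the 12 together summed to 29716 TPM in Huh7_shSCD1, 32998 TPM in Huh7_NTC, 3690 TPM in PLC_shSCD1 and 5562 TPM in PLC_NTC. The 11 considered in Huh7 had a median log2 difference of -0.26 and the 10 considered in PLC/PRF/5 one of -0.77, and the part of this list in the difference of the 7 genes was not tested. CYP3A4, a marker of mature hepatocytes, never exceeded 0.18 TPM, and the plasma carrier TTR was at 0.16 TPM in PLC_shSCD1 and 0.41 TPM in PLC_NTC. The 5 endothelial markers summed to between 1.5 and 3.4 TPM per library, and the 6 fibroblast and stellate markers to 77.6 TPM in Huh7_shSCD1, 55.8 TPM in Huh7_NTC, 2.53 TPM in PLC_shSCD1 and 3.47 TPM in PLC_NTC. Of the fibroblast and stellate markers, LUM was at 60.0 TPM in Huh7_shSCD1, against 10.8 TPM in Huh7_NTC, while COL1A2 was at 9.63 TPM in Huh7_shSCD1, against 30.9 TPM in Huh7_NTC, and the 4 considered in Huh7 had a median log2 difference of -0.70. The endothelial KDR and TEK were listed at 0 in all 4 libraries, and the leukocyte gene PTPRC was at 0.99 TPM or less. LYZ, the lysozyme gene, which made up nearly the whole sum of the leukocyte list, was between 1008 and 2600 TPM.

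CEACAM1 is an immunoglobulin-family adhesion molecule and inhibitory receptor of the cell surface, which in mouse liver promotes insulin clearance. Its level was 45.3 TPM in Huh7_shSCD1, against 137 TPM in Huh7_NTC, and 3.73 TPM in PLC_shSCD1, against 13.2 TPM in PLC_NTC. The log2 differences were -1.58 in Huh7 and -1.59 in PLC/PRF/5, that is 2.99-fold and 3.01-fold lower by (TPM + 1). The lines differ 10.4-fold in the NTC libraries, and the Huh7 knockdown library still lay above the PLC/PRF/5 control. The knockdown and control values therefore overlap across lines although the within-line ratios are nearly equal. Since these are whole-culture measurements, fewer cells expressing a gene and less RNA per cell cannot be told apart.

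B4GALT1 is the Golgi enzyme that adds galactose to the N-glycans of secreted and surface proteins. It was at 18.9 TPM in Huh7_shSCD1, against 54.6 TPM in Huh7_NTC, and at 21.2 TPM in PLC_shSCD1, against 60.4 TPM in PLC_NTC. Here the lines were close in level, and both knockdown libraries lay well below both control libraries (log2 differences -1.49 and -1.47).

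UBE2L6 is the E2 enzyme that passes the ubiquitin-like modifier ISG15 to its substrates. Its level was 28.6 TPM in Huh7_shSCD1, against 74.2 TPM in Huh7_NTC, and 3.54 TPM in PLC_shSCD1, against 13.8 TPM in PLC_NTC. It had the widest gap of the 7 between lines, with log2 differences of -1.35 in Huh7 and -1.70 in PLC/PRF/5. As with CEACAM1, the 2 lines differed in level, 5.38-fold in the NTC libraries, and the groups overlap across lines.

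SLC44A2 encodes choline transporter-like protein 2. It was low in all libraries, at 4.36 TPM in Huh7_shSCD1, against 14.7 TPM in Huh7_NTC, and at 4.13 TPM in PLC_shSCD1, against 12.6 TPM in PLC_NTC (log2 differences -1.55 and -1.41). The 2 knockdown values were close to each other and below both controls.

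CNIH1, the most abundant of the 7, encodes a cornichon protein, a family of cargo receptors for export from the endoplasmic reticulum first described in the fly. Its level was 78.7 TPM in Huh7_shSCD1, against 201 TPM in Huh7_NTC, and 149 TPM in PLC_shSCD1, against 338 TPM in PLC_NTC. The log2 differences were -1.35 and -1.18, and both knockdown libraries were below both controls.

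NEK7, a NIMA-related kinase of the mitotic spindle that is also required for NLRP3 inflammasome activation, was at 13.3 TPM in Huh7_shSCD1, against 32.0 TPM in Huh7_NTC, and at 15.2 TPM in PLC_shSCD1, against 38.7 TPM in PLC_NTC (log2 differences -1.20 and -1.29). FAM174A, a member of a small family of membrane proteins, was the least abundant of the 7 in both Huh7 libraries but not in PLC/PRF/5. It was at 1.75 TPM in Huh7_shSCD1, against 5.44 TPM in Huh7_NTC, and at 5.43 TPM in PLC_shSCD1, against 14.9 TPM in PLC_NTC (log2 differences -1.23 and -1.31). The knockdown and control values of NEK7 are well apart across lines, whereas the PLC_shSCD1 and Huh7_NTC values of FAM174A nearly touch. In 5 of the 7 genes both knockdown values were below both control values.

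**Figure D1:**
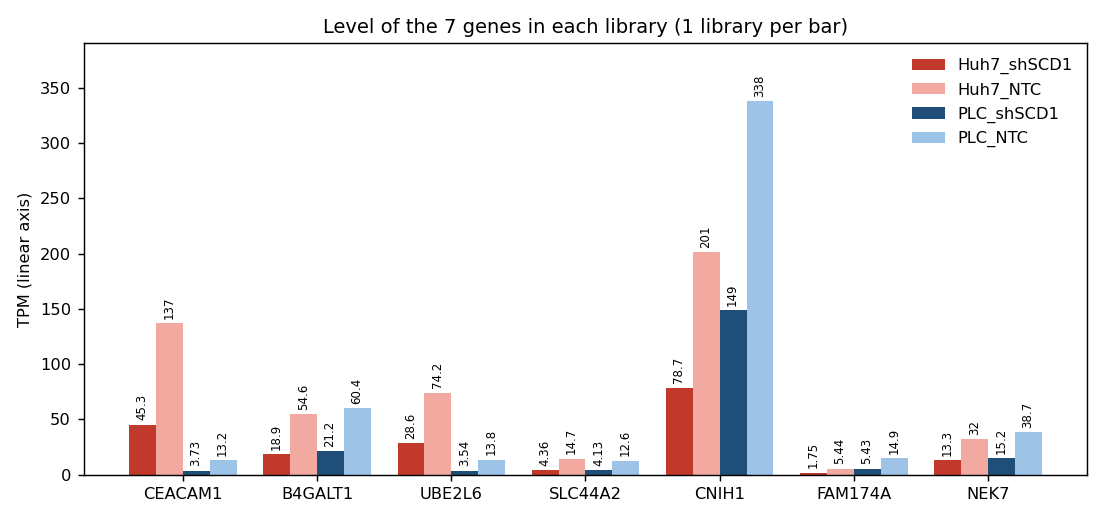
TPM (linear axis from 0) of the 7 genes in Huh7_shSCD1, Huh7_NTC, PLC_shSCD1 and PLC_NTC, 1 library per bar with its value above it. Each dark bar (shSCD1) is lower than the pale bar (NTC) of the same line, in CNIH1 at 78.7 against 201 TPM and 149 against 338 TPM.

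The rule that chose the genes fixes their direction and their likeness between lines, so the counts that follow are a frame and not support. Of 12064 genes with at least 1 TPM in a library of each line, 26 (0.216%) were at least 2-fold lower in both lines, and 52 (0.431%) at least 2-fold higher in both. Median-ratio scaling of the libraries turned this split round, with 44 lower and 35 higher, so that the higher genes made up 44.3% in place of 66.7%. In Huh7 alone 207 of 13485 genes (1.54%) were at least 2-fold lower, and in PLC/PRF/5 alone 146 of 13057 (1.12%); at least 2-fold higher were 418 (3.1%) and 225 (1.72%). The median log2 difference of the 7 genes was -1.35 in Huh7 and -1.41 in PLC/PRF/5, beside medians of 0.08 and 0.10 over all genes considered. The 2 lines' log2 differences lay 0.01 to 0.36 apart in the 7 genes. Of the 26 lower genes, 20 (76.9%) had a gap no wider than 0.36, and of the 52 higher genes 30 (57.7%) did. The cut of 0.36 is the widest gap of the 7 genes. These are among the 26 and pass it by construction. The median gap was 0.16 over the 26 lower genes, 0.31 over the 52 higher genes and 0.20 over all 12064 genes.

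At the edge of the rule, the member with the smallest change was CNIH1 (-1.18 in PLC/PRF/5). The genes just outside 2-fold in 1 line were TMEM64 (-0.99 and -1.34 in Huh7 and PLC/PRF/5), RSC1A1 (-1.43 and -0.99) and SLC25A23 (-1.05 and -0.98). S100A9 (-2.31 and -2.20) also meets the rule's wording but is not among the 7. The 7 are therefore not all of the genes that were lower alike. The other genes 2-fold lower in both lines that are not described elsewhere were SULT1A4, NPTX2, KNG1, ITGB1BP1, WASF3, HN1L and HOMER1. Among these KNG1 had one of the widest gaps (-1.16 and -2.47). SULT1A4 can share reads with a near-identical copy, SULT1A3, which was higher in both lines. In Huh7_shSCD1, Huh7_NTC, PLC_shSCD1 and PLC_NTC, SULT1A4 was at 0.1, 8.67, 7.91 and 22.86 TPM. SULT1A3 was at 27.05, 8.67, 7.91 and 0.66 TPM. The difference of either symbol alone therefore cannot be told apart from the split of reads between them.

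**Figure D2:**
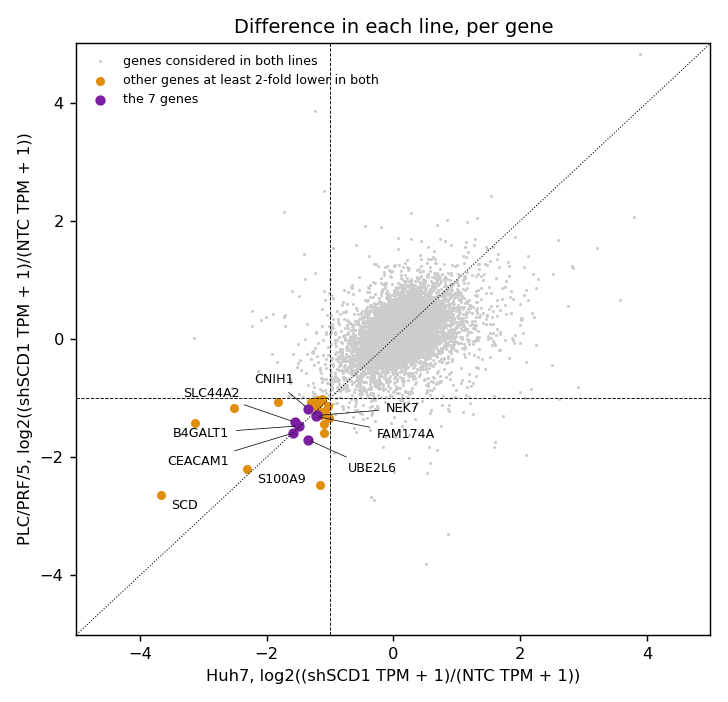
Log2((shSCD1 TPM + 1)/(NTC TPM + 1)) in Huh7 (horizontal) against PLC/PRF/5 (vertical) for the 12064 genes considered in both lines, with dashed lines at -1 and a dotted line of equality. The 7 genes (purple) lie near the line of equality, inside the group of 26 genes (orange and purple) at least 2-fold lower in both lines.

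Genes with the most similar pair of log2 differences were found by their distance to the median pair of the 7. The nearest were SERINC5, a serine incorporator family membrane protein (-1.14 in Huh7 and -1.29 in PLC/PRF/5), and NSFP1, which was listed at 0 in both knockdown libraries and at 1.13 and 1.72 TPM in the Huh7_NTC and PLC_NTC libraries. Next came NCKAP1, a subunit of the WAVE actin-regulating complex (-1.21 and -1.17), the ubiquitin ligase genes RNF5 (-1.10 and -1.59) and RNF141 (-1.08 and -1.22), PPY (at most 2.39 TPM), PPT1, a lysosomal thioesterase (-1.18 and -1.10), SERPINA3 (-1.29 and -1.06), TMEM64 and MAL2 (-1.23 and -1.05). Measured instead by level over all 4 libraries, on log2(TPM + 1), the nearest gene to CEACAM1 was LOX and the second nearest UBE2L6. By the same measure the nearest was UBAC1 to B4GALT1, SGK1 to UBE2L6, MLYCD to SLC44A2, NCKAP1 to CNIH1, KIF21B to FAM174A and GALNT11 to NEK7. NCKAP1 is the 1 gene that is both first by level to one of the 7 and at least 2-fold lower in both lines. These likenesses are over 4 libraries from 2 lines and are descriptions.

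No relative of the 7 genes met the same size rule. In 10 lists of family members and pathway partners, 86 genes other than the 7 were considered in both lines; 0 of them were at least 2-fold lower in both lines and 0 at least 2-fold higher in both. This count is a size rule on single libraries, beside 0.216% and 0.431% of all genes. In 1 line, 1.54% of all genes in Huh7 and 1.12% in PLC/PRF/5 were at least 2-fold lower. At such shares a count of 0 is usual in a short list. Counts by sign below have no share of all genes beside them. The medians of all genes considered were 0.08 in Huh7 and 0.10 in PLC/PRF/5, and median-ratio scaling put them at -0.02 and -0.03.

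Among the CEACAM genes, most were near or at 0, and CEACAM19 was the 1 relative considered in both lines. CEACAM19 was at 5.38 TPM in Huh7_shSCD1, against 3.65 TPM in Huh7_NTC, and at 2.35 TPM in PLC_shSCD1, against 1.23 TPM in PLC_NTC. CEACAM6, an adhesion molecule often raised in carcinomas, was at 12.4 TPM in PLC_shSCD1, against 7.18 TPM in PLC_NTC, and under 1 TPM in Huh7. Of the CEACAM1 transcript, 8.08% of its 31-base words also occur in other genes, so a small part of its reads can be shared. For each of the other 6 genes this was 0.144% or less.

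B4GALT1 is 1 of 7 beta-1,4-galactosyltransferases. The other 6 had median log2 differences of -0.06 in Huh7 and 0.15 in PLC/PRF/5. None was 2-fold lower in either line. B4GALT5, which makes lactosylceramide, was at 50.2 TPM in Huh7_shSCD1, against 24.1 TPM in Huh7_NTC, and at 32.8 TPM in PLC_shSCD1, against 26.8 TPM in PLC_NTC. B4GALT2 was close to its NTC level in both lines (log2 differences -0.11 and -0.10). A further 17 genes of Golgi N-glycan processing were considered. Of these, 9 had lower values in each line, 4 higher values and 4 opposite ones. In 1 line 3 were at least 2-fold lower, 1 in Huh7 and 2 in PLC/PRF/5, beside 1.54% and 1.12% of all genes. MAN2A1, Golgi alpha-mannosidase II, was at 31.1 TPM in Huh7_shSCD1, against 54.9 TPM in Huh7_NTC, and at 20.7 TPM in PLC_shSCD1, against 48.1 TPM in PLC_NTC. The branching enzyme MGAT5 had log2 differences of -1.38 and -0.58, and the sialyltransferase ST6GAL1 of -0.59 and -1.57.

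UBE2L6 is also counted among interferon-inducible genes. The other genes of ISG15 conjugation had median log2 differences of 0.17 in Huh7 and 0.00 in PLC/PRF/5. ISG15 itself was at 41.7 TPM in Huh7_shSCD1, against 33.0 TPM in Huh7_NTC, and at 34.3 TPM in PLC_shSCD1, against 24.5 TPM in PLC_NTC. UBE2L3, the closely related ubiquitin E2, had log2 differences of 0.16 and 0.00. Of 29 interferon-stimulated genes, 12 were considered, with lower values in each line for 3, higher values for 4 and opposite ones for 5. IFI6, an interferon-inducible gene, had log2 differences of -0.73 and -0.82.

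For SLC44A2, the relatives SLC44A1 and SLC44A3 were at -0.11 and 1.37 in Huh7 and at -0.57 and 0.41 in PLC/PRF/5 on the log2 scale. SLC44A3 was at 38.1 TPM in Huh7_shSCD1, against 14.1 TPM in Huh7_NTC, and at 61.6 TPM in PLC_shSCD1, against 46.2 TPM in PLC_NTC. The CDP-choline route, which turns choline into phosphatidylcholine, held no gene 2-fold lower in either line. Its first enzyme CHKA had log2 differences of -0.65 and -0.14, and CHKB of 0.66 and 0.71.

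CNIH1 was set beside the other cornichon genes and the COPII genes, which build the vesicles that leave the endoplasmic reticulum. Of 20 such genes considered, 11 had higher values in each line, 9 opposite ones and 0 lower ones. Their median log2 difference was 0.05 for Huh7 and 0.23 for PLC/PRF/5, beside 0.08 and 0.10 over all genes considered. CNIH4 was at 63.2 TPM in Huh7_shSCD1, against 62.3 TPM in Huh7_NTC, and at 81.2 TPM in PLC_shSCD1, against 81.3 TPM in PLC_NTC. The coat subunit genes SEC24D (-0.07 and 0.75) and SEC31A (0.16 and 0.61) were higher in PLC/PRF/5.

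Beside FAM174A, FAM174B was at 12.2 TPM in Huh7_shSCD1, against 8.04 TPM in Huh7_NTC, and at 18.5 TPM in PLC_shSCD1, against 6.66 TPM in PLC_NTC. C19orf24, the older symbol of the third family member, had log2 differences of -0.02 and -0.04.

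Among the NEK kinases, NEK6, the closest relative of NEK7, was at 77.5 TPM in Huh7_shSCD1, against 62.6 TPM in Huh7_NTC, and at 37.1 TPM in PLC_shSCD1, against 28.8 TPM in PLC_NTC. NEK9, the kinase that activates both, had log2 differences of 0.19 and -0.14. Among 8 NEK relatives considered, 3 had lower values in each line, 3 higher and 2 opposite, and none differed 2-fold. The inflammasome sensor NLRP3 never exceeded 0.02 TPM, and IL18, an inflammasome substrate, was at 183 TPM in Huh7_shSCD1, against 37.7 TPM in Huh7_NTC, and at 163 TPM in PLC_shSCD1, against 89.1 TPM in PLC_NTC.

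**Figure D3:**
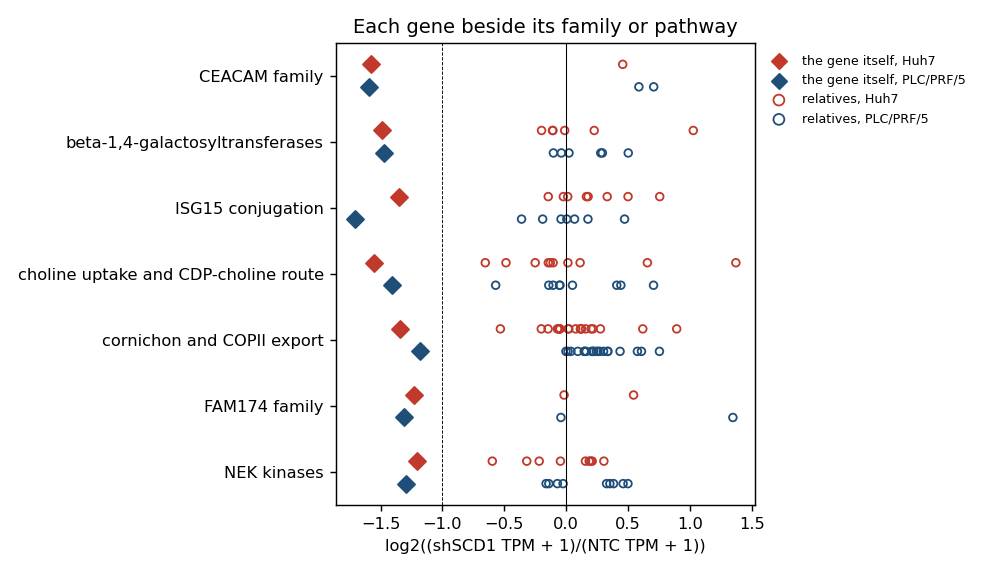
Log2((shSCD1 TPM + 1)/(NTC TPM + 1)) of each of the 7 genes (filled diamonds) and of its family or pathway relatives with at least 1 TPM in a library of the line (open circles), in Huh7 (red) and PLC/PRF/5 (blue), with a dashed line at -1. The lists of Golgi N-glycan, interferon-stimulated and inflammasome genes are not drawn. The diamonds lie beyond -1 in both lines and the relatives drawn lie to their right, those of the galactosyltransferases with medians of -0.06 and 0.15.

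The transcripts of the 7 genes were then searched for sequence in common with the SCD mRNA, the stretch any SCD hairpin has to match. The hairpin's own sequence is not given in the sources used here. Transcripts were the longest complete coding transcript per gene in GENCODE 29, and 10776 of the 12064 genes (89.3%) had one with a 3′ UTR. In a first, exploratory search, 7-base words were compared for how often they occur in the 3′ UTRs of 3 sets of genes: the 7, the 23 lower in both lines and 85 with both log2 differences at -0.7 or lower. TCTGATC was the leading word of the 2 larger sets, both of which contain the 7 genes, and was found in 11 of the 23 and 35 of the 85. Among the 7 alone another word, TAACTGC, led with 5 of 7 genes, against 9.76% of all genes. Only after that were all 7-base words ranked by the median log2 difference of the genes that hold the word in their 3′ UTR, with SCD and the 7 genes left out. Of 4231 words of the SCD mRNA found in at least 100 genes, TCTGATC ranked 1 in Huh7 and 2 in PLC/PRF/5 (lowest median first). Over all 15672 words, whether in SCD or not, it ranked 6 and 10. TCTGATC was thus chosen after the values were seen and partly from the 7 genes, out of many words searched. Its ranks and the shares below are a description of these libraries and give no independent support, also where the 7 genes are left out.

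TCTGATC occurs in the 3′ UTR of 4 of the 7 genes (B4GALT1, CNIH1, FAM174A and NEK7), and in SLC44A2 it occurs in the coding part. Over all 10776 genes, 9.15% hold the word in the 3′ UTR and 8.29% in the coding part. CEACAM1 has the inner 6 bases CTGATC in its 3′ UTR, as have 24.7% of all genes, and UBE2L6 has neither in its 3′ UTR. The 3′ UTRs of the 7 genes ranged from 557 bases in FAM174A to 4254 bases in CNIH1, with a median of 1803 bases, against 1320 bases over all genes. The sites of SCD and of 4 of the genes that hold the word are shown, as sequence that some of the 7 genes share. The word itself was picked with the same log2 differences that chose the 7 genes. It is in capitals with 10 bases on either side, 5′ to 3′ on the mRNA strand.
SCD: tacggctcttTCTGATCattgccaaca
B4GALT1: gggggctgtgTCTGATCttggtgttca
CNIH1: gcctgtggaaTCTGATCagttacttta
NEK7: ttattgaagtTCTGATCggtccccttc
SLC44A2: tgggcaaactTCTGATCgttggtagtg
On GRCh38, the SCD site is at chr10:100352456-100352482 (plus strand, coding part), that of B4GALT1 at chr9:33110710-33110736 (minus strand, 3′ UTR) and that of CNIH1 at chr14:54427697-54427723 (minus strand, 3′ UTR). The NEK7 site is at chr1:198320441-198320467 (plus strand, 3′ UTR) and the SLC44A2 site at chr19:10638064-10638090 (plus strand, coding part). Counted from the first base of the 3′ UTR, the word starts at base 101 of 4254 in CNIH1, 929 of 2898 in NEK7 and 2728 of 2817 in B4GALT1. The sites thus lie at the start of the 3′ UTR in CNIH1 and near its end in B4GALT1. Among the sites shown, the run of bases identical to the SCD coding site through the word was 8 bases in NEK7, CNIH1 and SLC44A2, and 7 in B4GALT1. The word also lies in the SCD 3′ UTR, and sites there shared longer runs with CNIH1 (ATCTGATCA) and B4GALT1 (TCTGATCT).

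The word occurs 3 times in the SCD mRNA of 5362 bases: at base 792 in the coding part, and at bases 4164 and 4330 in the 3′ UTR. Around base 792, the 6 overlapping words that start at bases 790 to 795 each had a median below that of all genes in both lines. In Huh7 their differences from the median of all genes were -0.026, -0.026, -0.072, -0.044, -0.035 and -0.028, and in PLC/PRF/5 they were -0.020, -0.013, -0.072, -0.056, -0.0092 and -0.012. The words on either side, at bases 789 and 796, were at 0.00998 and -0.0056 in Huh7 and at -0.0021 and 0.0057 in PLC/PRF/5. Words that overlap share genes, and runs of low words were not confined to base 792. The words that start at bases 4163 to 4165 and 4329 to 4332 were also below the median of all genes in both lines. In Huh7 this held for bases 4163 to 4168 and 4329 to 4334. The reverse complement GATCAGA, held by 980 genes, was at -0.0083 in Huh7 and 0.0063 in PLC/PRF/5.

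**Figure D4:**
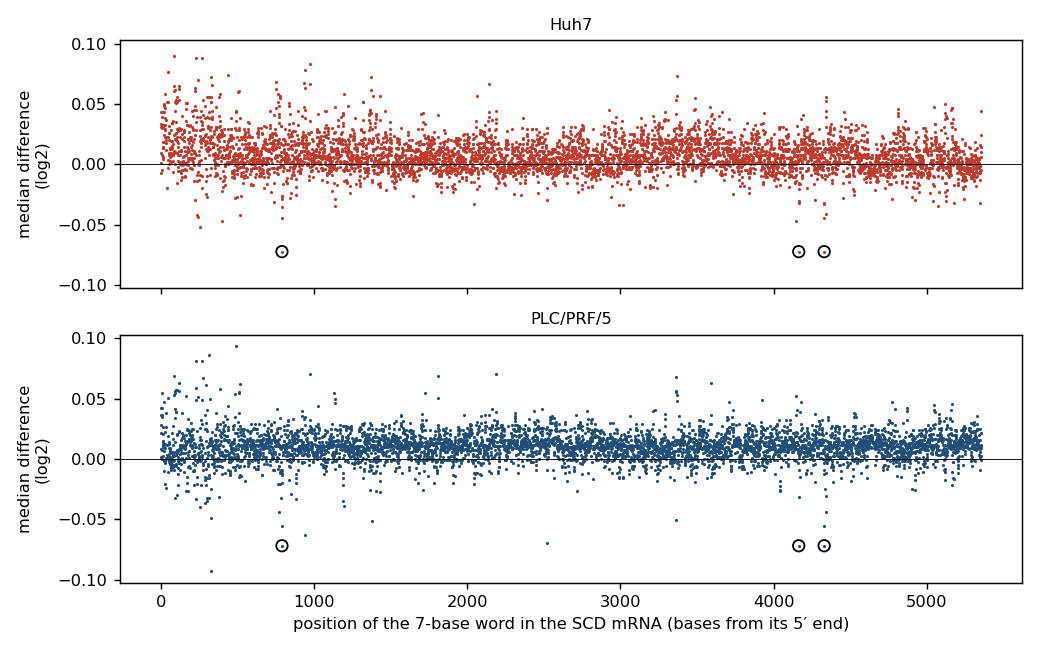
For each 7-base word of the SCD mRNA, by its position (horizontal, bases from the 5′ end), the median log2 difference of genes that hold the word in their 3′ UTR minus the median of all 10768 genes ranked (vertical), in Huh7 (top) and PLC/PRF/5 (bottom). Circles mark the 3 positions of the word TCTGATC, at -0.072 in both lines.

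Across the genes with at least 1 TPM in a library of each line the shift that went with the word was small. With no such minimum the difference between genes with and without the word shrank to -0.0036 in Huh7 and -0.024 in PLC/PRF/5, in place of -0.079 and -0.078. The 981 genes with the word in the 3′ UTR, without SCD and the 7, had a median log2 difference of 0.00 in Huh7, against 0.08 for the 9787 without it, and of 0.02 in PLC/PRF/5, against 0.10. A log2 difference of -0.5 or lower was found in 9.89% of the genes with the word and 4.48% of those without it in Huh7, and in 7.85% and 4.34% in PLC/PRF/5. For the 794 genes with the word only in the coding part the median was 0.02 for Huh7 and 0.10 for PLC/PRF/5. Word-holding genes have longer 3′ UTRs, and within the genes of short 3′ UTR (745 bases or less) the 61 genes with the word were at -0.15 (Huh7) and -0.08 (PLC/PRF/5), against 0.05 and 0.07 for the 3529 genes without it. Among long 3′ UTRs (2116 bases or more) they were 0.02 and 0.03 with the word, against 0.10 and 0.12 without it. The 108 genes with 2 or more copies were at -0.03 in Huh7 and 0.01 in PLC/PRF/5, against 0.01 and 0.02 for the 873 genes with 1 copy. Where a T precedes the word and an A follows it, as at the SCD coding site, 133 genes were at -0.05 and 0.00. These medians lie close together, and the order of the subsets was not tested.

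Of 23 genes at least 2-fold lower in both lines, other than SCD, that have a 3′ UTR, 11 (47.8%) hold the word. Without the 7 genes it is 7 of 16 (43.8%). Of 44 genes at least 2-fold higher in both lines, 2 (4.55%) hold it, beside 9.15% of all genes. Other genes lower in both lines were grouped by the smaller of their 2 log2 differences, so that a gene can be much lower in the other line. The share was 38.7% of 62 genes whose smaller difference lay between -0.7 and -1, 16.8% of 107 genes between -0.5 and -0.7, and 15.9% of 296 genes between -0.3 and -0.5. These cuts were set after the values were seen. Of genes 2-fold lower in 1 line only, 17 of 84 (20.2%) held it for Huh7, and 11 of 83 (13.3%) for PLC/PRF/5, and no difference between shares was tested. The median 3′ UTR length was 2185 bases in the 23 genes and 1241 bases in the 44 genes. The 62, 107 and 296 genes had medians of 1508.5, 999 and 1147.5 bases, against 1320 bases over all genes. The median was thus above that of all genes in the 23 and 62 genes, and below it in the 107 and 296 genes. The part of length in these shares, and that of the word in the lower RNA of the 7 genes, was not tested.

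**Figure D5:**
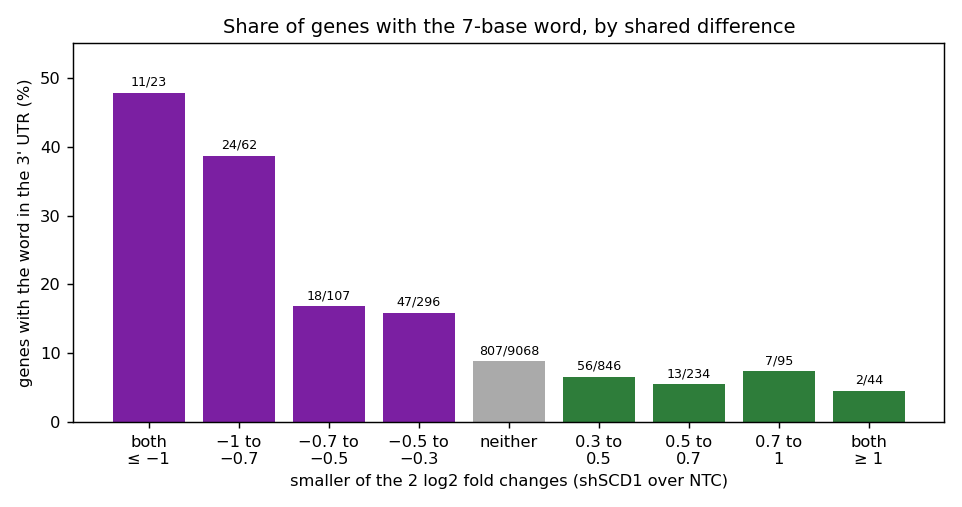
Share of genes (vertical, percent, from 0) with the word TCTGATC in the 3′ UTR, by the smaller of the 2 lines' log2 differences (horizontal), SCD left out, with the number of genes above each bar. Bars at the left are genes lower in both lines, from 47.8% for at least 2-fold, the grey bar holds genes under 0.3 in at least 1 line or opposite, and bars at the right are genes higher in both lines, at 4.55% for at least 2-fold.

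The 7 other lowered genes with the word are KNG1, MAL2, NCKAP1, PPT1, RBMS1, RNF141 and SERINC5. Some have a longer run in common with the SCD coding site than the sites shown above, and these are shown for that reason, in the same form.
NCKAP1: ggttgtatttTCTGATCattggtttct
RNF141: tttttgctatTCTGATCatttgtcccc
RBMS1: catggattttTCTGATCaattgtgctt
NCKAP1 holds the word 6 times in its 3′ UTR, and the site with the longest run identical to the SCD coding site is shown. The identical run was 13 bases in NCKAP1 (TTTCTGATCATTG), 11 bases in RNF141 and 10 bases in RBMS1. These runs were measured against the SCD coding site only. Another NCKAP1 site, at base 397 of its 3′ UTR, also shares 13 bases with the SCD 3′ UTR site at base 4164. The PPT1 site in the 3′ UTR shares 10 bases with that same SCD site. Long runs were thus not confined to the SCD coding site. NCKAP1 was at 61.7 TPM in Huh7_shSCD1, against 144 TPM in Huh7_NTC, and at 123 TPM in PLC_shSCD1, against 279 TPM in PLC_NTC. RNF141 was at 10.1 TPM in Huh7_shSCD1, against 22.6 TPM in Huh7_NTC, and at 9.46 TPM in PLC_shSCD1, against 23.4 TPM in PLC_NTC. RBMS1, an RNA-binding protein gene, was at 8.99 TPM in Huh7_shSCD1, against 34.2 TPM in Huh7_NTC, and at 2.40 TPM in PLC_shSCD1, against 6.08 TPM in PLC_NTC. The sites are at chr2:182925555-182925581, chr11:10514772-10514798 and chr2:160274688-160274714 on GRCh38, all on the minus strand. SCD, by comparison, was 12.7-fold lower in Huh7 and 6.22-fold lower in PLC/PRF/5, while the 7 genes were between 2.26-fold and 3.26-fold lower.

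RefSeq promoters were matched for 5 of the 7 genes: CEACAM1, B4GALT1, UBE2L6, SLC44A2 and FAM174A. These sequences (GRCh38.p14, 250 bases before to 50 after the start) were searched on both strands for an interferon-response element (GAAA, any 2 bases, GAAA), a sterol-response element (TCACNCCAC), an E-box (CACGTG), a cyclic AMP response element (TGACGTCA) and an AP-1 site (TGANTCA). Of these 5 genes, the interferon-response element was found in CEACAM1 alone, as in 3.57% of 35116 promoters, and TGACGTCA in FAM174A alone, as in 1.85%. The sterol-response element, the E-box and the AP-1 site, found in 1.13%, 7.26% and 7.71% of promoters, had 0 matches among the 5. The CEACAM1 promoter is shown as the one with an interferon-response element, with the motif in capitals (chr19:42528432-42528731, minus strand).
CEACAM1: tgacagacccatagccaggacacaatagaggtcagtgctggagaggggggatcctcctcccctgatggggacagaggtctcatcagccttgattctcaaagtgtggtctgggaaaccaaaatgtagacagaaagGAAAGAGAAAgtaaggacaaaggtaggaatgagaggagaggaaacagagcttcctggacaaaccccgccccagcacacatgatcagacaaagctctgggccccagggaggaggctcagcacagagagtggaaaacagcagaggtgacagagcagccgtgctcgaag
A match in these letters is a description and not a binding site.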

How the data were processed

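RNA was extracted with TRIzol and made into standard Illumina libraries, per the labels' protocols. The authors deposited TPM for each library, listed by symbol. The tools in the submitters' processing notes are cutadapt and RSEM 1.2.21, with hg19 as the build; their order and settings are not stated there. For the aligner, annotation and strand, nothing is given in the sources used. RSEM splits ambiguous reads among genes, and TPM fixes each library's total, so a change in abundant transcripts shifts all other values.

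Groups came from the sample titles. Fold changes per line used a pseudocount of 1 and genes of at least 1 TPM in a library of the pair; 2-fold was a size rule, not a test, as each group has 1 library and both contrasts chose the 7 genes. The 7 genes and the lists were chosen with earlier results of these data known. The word TCTGATC, its cuts and subsets, the sites shown and the 5 motifs were chosen after values were seen. A possible hairpin target recalled from outside these sources was also looked at while exploring; it could not be checked and is not reported. Some list members and sites are not reported here. Named genes were the 7, SCD, SCD5, the other genes 2-fold lower in both lines, list members, the 10 nearest genes by pair of differences and, of the 3 nearest by level for each of the 7, the first; genes just outside 2-fold were chosen after their values were seen. Sequences came from GENCODE 29 (GRCh38) and RefSeq, a different build from the authors', so coordinates describe the reference and not the files. The fold rule and the word ranking were run on simulated data with planted changes, which were recovered. The planted word shift was larger than that of TCTGATC, and the planted genes were well expressed. This checked the code alone, not its power for small shifts or low genes. Python 3.11.15, pandas 2.3.3, numpy 2.4.6, scipy 1.17.1 and matplotlib 3.10.9 were used. Alternatives were pseudocounts of 0.1 and 5, a minimum of 5 TPM or none, median-ratio scaling and, added after seeing the data, the same for the word and all coding transcripts of a gene.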

Additional observations from a re-analysis of the deposited data

Results flagged for a closer look

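Among the list genes with at least 1 TPM in a library of each line, 3 differed at least 1.5-fold in opposite directions in the 2 lines. ALB had log2 differences of 0.69 in Huh7 and -0.73 in PLC/PRF/5. CASP4, an inflammatory caspase gene, was at 0.76 and -0.72, and TAP1, a peptide transporter gene of antigen presentation, at 0.65 and -0.83. With 1 library per group, the difference between the lines was not tested.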

How the results depend on the processing

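All 7 genes stayed at least 2-fold lower in both lines with a pseudocount of 0.1, a minimum of 5 TPM, no filter and median-ratio scaling. With a pseudocount of 5, 5 did: FAM174A fell short in both lines (-0.63 and -0.93) and SLC44A2 in PLC/PRF/5 (-0.95). The 26 genes lower in both lines became 44 with a pseudocount of 0.1, 12 with one of 5 and 44 with median-ratio scaling, and the 52 higher in both became 81 and 14 with the pseudocounts of 0.1 and 5. The 207 genes lower in Huh7 became 370 and 92 with these pseudocounts. The 146 lower in PLC/PRF/5 became 248 and 55, and 224 with median-ratio scaling. That scaling moved the median of all genes by -0.09 in Huh7 and -0.14 in PLC/PRF/5. The share of lower genes with the word stayed between 38.5% and 63.6%, and 4 of the 7 genes held it in any coding transcript. Its median difference, with the word minus without, was -0.079 in Huh7 and -0.078 in PLC/PRF/5, and without a filter, which adds many genes at 0, it was -0.0036 and -0.024. Each difference was taken within a line, between shSCD1 and NTC, and no paired test was run. A fit with line as a block, over the 2 within-line pairs, was not run, since the 7 genes were chosen on both contrasts. With 1 library per group, leaving one out leaves no difference in its line. Without depth, no detection limit could be set for the low values of FAM174A and SLC44A2. The same holds for CEACAM1 and UBE2L6 in PLC_shSCD1 (3.73 and 3.54 TPM).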

Other observations

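Some words that are absent from the SCD mRNA also had low medians in both lines. CGGATTG was held in the 3′ UTR of 130 genes, whose median lay -0.10 from that of all genes in Huh7 and -0.052 in PLC/PRF/5. TCGTAGC was held by 142 genes, at -0.073 in Huh7 and -0.051 in PLC/PRF/5. For CGTAGCA, held by 200 genes, the values were -0.066 and -0.086. None of the 7 genes holds any of these words in its 3′ UTR. Other such words were held by 1 of the 7 genes each. These were ACAACGG (129 genes, at -0.067 in Huh7 and -0.050 in PLC/PRF/5) and TCGGATT (166 genes, at -0.067 and -0.059). CTGATCG, which overlaps the word TCTGATC, was at -0.068 and -0.070 over 163 genes, and 2 of the 7 genes hold it.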
